A study of Mus musculus with 6 samples.

Results

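The 8 genes described here encode secreted products of Paneth cells, the granule-filled cells at the base of small intestinal crypts: Lyz1, Mmp7, Mptx1, Mptx2, Ang4, Itln1, Defa24 and Defa17. They were taken by symbol from tables of 24452 gene symbols, and all 8 were present in every table. The data are RNA-seq libraries of small intestine from C57BL/6 mice at postnatal day 14, an age at which pups still suckle. There were 3 libraries labelled Erk1/2 -/-, called here labelled KO1, KO2 and KO3, and 3 labelled wild type, called WT1, WT2 and WT3. ERK kinases are the last kinases of the RAS to MAP kinase cascade, Mapk3 encodes ERK1, and the series title asks what their negative feedback does in the postnatal intestine. The labels name neither the alleles nor a Cre driver, so the cells in which the kinases were removed are not known from them. Nothing in the labels ties the libraries to separate mice, so the p-values cover only the spread among these 6 libraries, which may be technical.

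Paneth cells arise late, with the growth of the crypts, and mature around weaning. They store antimicrobial proteins in large granules and release them into the crypt lumen. Wnt signalling with SOX9 drives their formation, ATOH1 commits crypt cells to the secretory lineage shared with goblet cells, and the cells are most numerous in the distal small intestine. Among the products, lysozyme cuts bacterial cell walls and alpha-defensins puncture bacterial membranes. MMP7 is the protease that cuts mouse pro-alpha-defensins into their active form.

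In the libraries labelled knockout, Mmp7, Mptx2 and Itln1 rose 8.51-fold, 5.70-fold and 3.47-fold over wild type. Lyz1, the most abundant of the 8, differed 4.63-fold without passing the test. Ang4, Mptx1 and Defa17 overlapped between the genotypes, and Defa24 was at or near 0 in all 6 libraries. WT3 stood apart from WT1 and WT2 in having more of most Paneth transcripts, and for the alpha-defensins Defa21 and Defa22 it was close to labelled KO1.

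Values are normalised counts, as scaled by the authors, and they summed to between 14825845 and 17153570 in the labelled KO libraries and between 13641468 and 14094100 in the WT libraries. The reads behind them were estimated at 12546568 to 16300503 per library. Mapk3 had 3363, 2280 and 2734 in labelled KO1 to KO3, against 3142, 2788 and 2004 in WT1 to WT3, a log2 difference of 0.09 ± 0.22 (SE; adjusted p = 0.819 by limma). The Mapk3 transcript was not called lower in the libraries labelled knockout. Its values are totals over the whole gene, which hold no values for single exons, so every direction below is that of the labels. The test called a gene when its adjusted p from limma was below 0.05. That held for 8.79% of the 14686 genes tested, with 4.85% higher and 3.94% lower. Before adjustment, 4455 of those genes had a limma p under 0.05.

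The members lie on 5 chromosomes and are protein-coding, with positions from GENCODE vM21 on GRCm38 (mm10). Mptx2 (chr1:173274382-173277777, minus strand) and Mptx1 (chr1:174330518-174332873, plus strand) are 1052.7 kb apart, and Itln1 (chr1:171518122-171535294, minus strand) is on the same chromosome. Lyz1 (chr10:117287797-117292868, minus strand) lies 5.5 kb from Lyz2, the lysozyme gene of macrophages. Mmp7 is at chr9:7692090-7699585 on the plus strand and Ang4 at chr14:51763878-51773590 on the minus strand. Defa17 (chr8:21655780-21656735) and Defa24 (chr8:21734494-21735471) are on the plus strand of the alpha-defensin cluster, 77.8 kb apart.

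Promoter sequences were available for 6 of the 8 members, and those of 5 are shown: the called genes Mmp7, Mptx2 and Itln1, Mptx1 as the near copy of Mptx2, and Lyz1 as the most abundant member. Each is the 250 bases before the transcript start in RefSeq (GRCm38.p6), read along the gene's strand. Capitals mark TTTATG or TTTATT, words of the kind that CDX homeobox factors of the gut epithelium recognise. They also mark CTTTGAA or CTTTGAT, and likewise CTTTGTA or CTTTGTT, words of the kind that TCF factors of the Wnt pathway recognise. Both strands were searched, and no marked word overlapped another.
The Mmp7 window is chr9:7691840-7692089 (plus strand), that of Mptx2 chr1:173277757-173278006 (minus strand), that of Mptx1 chr1:174330268-174330517 (plus strand), that of Itln1 chr1:171535295-171535544 (minus strand) and that of Lyz1 chr10:117292869-117293118 (minus strand).
Mmp7: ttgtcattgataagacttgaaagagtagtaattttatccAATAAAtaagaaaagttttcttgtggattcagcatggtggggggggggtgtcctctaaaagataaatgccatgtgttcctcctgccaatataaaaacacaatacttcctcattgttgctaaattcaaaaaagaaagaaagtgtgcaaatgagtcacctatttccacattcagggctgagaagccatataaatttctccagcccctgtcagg
Mptx2: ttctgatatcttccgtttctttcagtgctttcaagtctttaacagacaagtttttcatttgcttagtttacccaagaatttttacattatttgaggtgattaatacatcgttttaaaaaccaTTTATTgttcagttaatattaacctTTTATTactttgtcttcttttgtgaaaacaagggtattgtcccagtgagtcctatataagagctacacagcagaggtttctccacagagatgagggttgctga
Mptx1: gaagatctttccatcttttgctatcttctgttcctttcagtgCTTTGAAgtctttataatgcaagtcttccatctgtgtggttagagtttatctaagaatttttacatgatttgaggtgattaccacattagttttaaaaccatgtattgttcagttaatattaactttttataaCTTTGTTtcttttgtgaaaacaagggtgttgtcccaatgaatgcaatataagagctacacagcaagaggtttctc
Itln1: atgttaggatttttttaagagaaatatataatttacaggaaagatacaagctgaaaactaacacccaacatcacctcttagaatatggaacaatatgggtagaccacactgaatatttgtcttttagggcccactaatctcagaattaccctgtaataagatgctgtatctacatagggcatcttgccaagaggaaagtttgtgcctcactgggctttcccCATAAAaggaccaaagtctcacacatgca
Lyz1: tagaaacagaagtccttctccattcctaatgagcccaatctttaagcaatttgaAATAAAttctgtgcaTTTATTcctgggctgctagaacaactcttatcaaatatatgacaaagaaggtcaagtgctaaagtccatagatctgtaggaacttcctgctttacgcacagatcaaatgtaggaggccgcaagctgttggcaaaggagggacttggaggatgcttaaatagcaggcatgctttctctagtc
TTTATG or TTTATT occurred in 4 of the 6 member promoters (Lyz1, Mmp7, Mptx2 and Itln1), against 26.1% of 27025 promoters of the same length. The TCF-type words occurred in 1 of the 6, that of Mptx1, 208 and 75 bases before the start, against 14.9% of all. CAGCTG, an E-box of the kind bound by helix-loop-helix factors such as ATOH1, was in none of the 6 and in 12.8% of all. A word match describes these letters only. The Mptx1 and Mptx2 windows were 88.5% identical over 227 aligned bases, and the Mptx2 window held none of the TCF-type words.

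**Figure D1:**
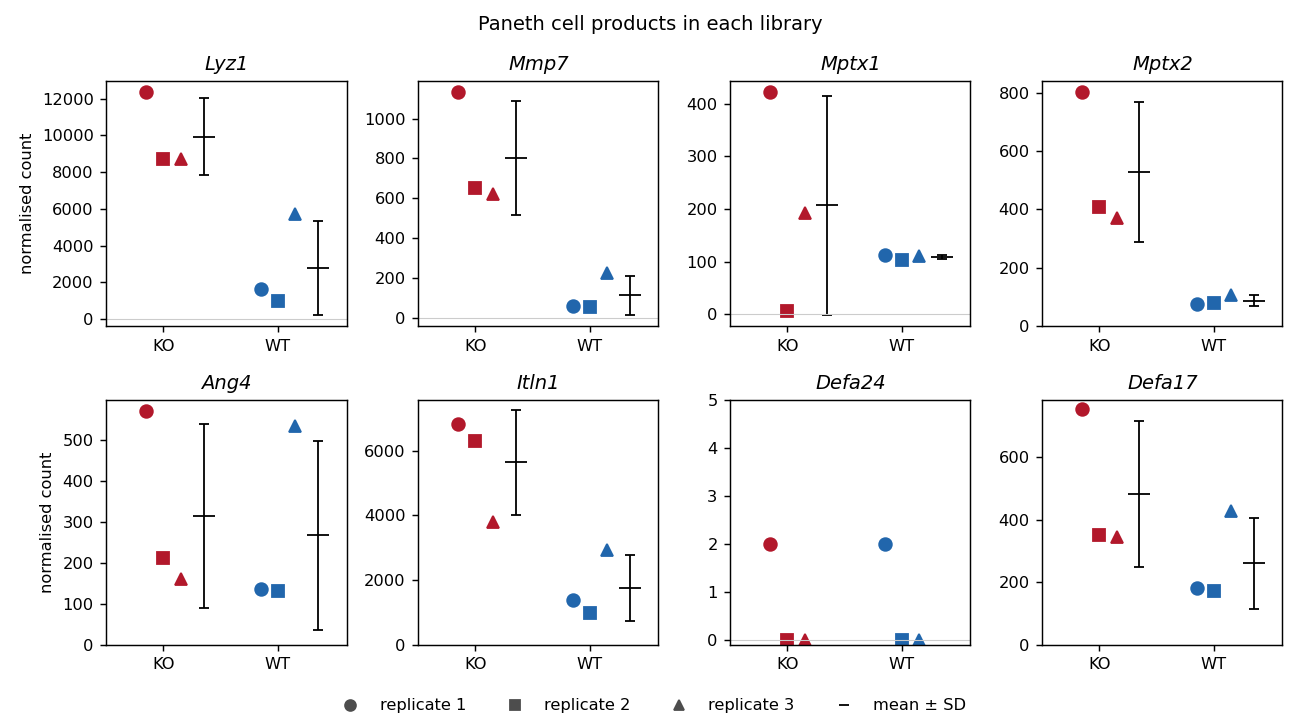
Normalised count of each Paneth product gene in every library, labelled KO on the left and WT on the right of each panel, with the mean ± SD of 3 libraries beside the points except for Defa24. Lyz1, Mmp7, Mptx2 and Itln1 have all 3 labelled KO libraries above all 3 WT libraries, and WT3 (triangle) is the highest WT library for Lyz1, Mmp7, Mptx2, Ang4, Itln1 and Defa17.

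Lyz1, encoding the lysozyme that marks Paneth granules, had normalised counts of 12358, 8741 and 8715 in labelled KO1 to KO3, against 1665, 993 and 5722 in WT1 to WT3. The lowest labelled KO library was 1.52 times the highest WT library, so the groups did not overlap, and WT3 lay nearer to the labelled KO libraries than to the other WT libraries on the log scale. The means were 9938 ± 2096 in the labelled KO libraries and 2793 ± 2558 in the WT libraries (SD, n = 3 each). The log2 fold change was 2.21 ± 0.59, and it did not pass over all genes (limma adjusted p = 0.0626). It passed without WT3, at 2.93 ± 0.29 (limma adjusted p = 0.0177). Leaving out the highest WT library raises the difference by construction. Lyz2, the near-identical macrophage lysozyme, had 1142, 781 and 682 in the labelled KO libraries, against 609, 643 and 671 in the WT libraries (0.40 ± 0.21; limma adjusted p = 0.232). The annotated transcripts of Lyz1 and Lyz2 were 96.0% identical, and 16.1% of the 50-base windows of Lyz1 also occurred in Lyz2. The ratio of Lyz1 to Lyz2 was 10.8, 11.2 and 12.8 in labelled KO1 to KO3, against 2.73, 1.54 and 8.53 in WT1 to WT3.

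Itln1 encodes intelectin-1, a lectin that binds microbial sugars and is made by Paneth and goblet cells. Its normalised counts were 6816, 6308 and 3787 in labelled KO1 to KO3, against 1366, 971 and 2923 in WT1 to WT3. The groups did not overlap, but labelled KO3 was only 1.3 times WT3. The gene rose, with a log2 fold change of 1.80 ± 0.42 and an adjusted p of 0.0476 by limma. That call was lost without any library other than WT3, with adjusted p-values of 0.0539 to 0.179, and when values were rescaled by library totals (1.62; limma adjusted p = 0.0529). Lyz1 and Itln1 together made up 83.9%, 90.2% and 88.1% of the summed members in labelled KO1 to KO3, against 84.2%, 78.6% and 86.0% in WT1 to WT3. Per kilobase of exon, Lyz1 averaged 7869 normalised counts and Itln1 4940 in the labelled KO libraries, against 2212 and 1537 in the WT libraries. Mmp7, Mptx1, Mptx2, Ang4 and Defa17 averaged between 259 and 1217 per kilobase in the labelled KO libraries, against 106 to 656 in the WT libraries.

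Mmp7 had the largest log2 fold change of the members tested. Its normalised counts were 1133, 651 and 624 in labelled KO1 to KO3, against 61, 52 and 227 in WT1 to WT3. Every labelled KO library was at least 2.75 times the highest WT library, and WT3 was 4.02 times the mean of WT1 and WT2. Mmp7 rose, at 3.09 ± 0.56 in log2 units and an adjusted p of 0.0263 by limma. The call was lost without labelled KO2, labelled KO3, WT1 or WT2 (limma adjusted p of 0.0557, 0.0947, 0.0999 and 0.133), where log2 fold changes were 2.70 to 3.24. None of the 50-base windows of the Mmp7 transcript occurred in another annotated gene.

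The pentraxin genes Mptx1 and Mptx2 encode secreted pattern-binding proteins of the mouse gut. Mptx2 had normalised counts of 804, 410 and 371 in labelled KO1 to KO3, against 76, 78 and 108 in WT1 to WT3. Of the 8 members it had the lowest p-value, at 2.51 ± 0.32 in log2 units (limma adjusted p = 0.0128). It was also the called member in which WT3 stood out least, at 1.4 times the mean of WT1 and WT2. The call was lost without labelled KO3, WT1 or WT2, at limma adjusted p-values of 0.0544, 0.0626 and 0.0797.

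Mptx1 had 422, 7 and 193 in labelled KO1 to KO3, against 112, 104 and 110 in WT1 to WT3. The labelled KO libraries averaged 207 ± 208 and reached above and below the WT libraries, which averaged 109 ± 4.16 (SD, n = 3 each). The fitted log2 difference was -0.33 ± 1.33 (limma adjusted p = 0.882), and it was 1.39 without labelled KO2 (limma adjusted p = 0.0687). The ratio of Mptx2 to Mptx1 was 1.91, 58.6 and 1.92 in labelled KO1 to KO3, against 0.679, 0.750 and 0.982 in WT1 to WT3, a difference that was not tested. The transcripts of the pair were 92.9% identical, and 17.9% of the 50-base windows of Mptx1 also occurred in Mptx2, so a part of their reads may not have been told apart.

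Ang4 encodes angiogenin-4, a bactericidal ribonuclease of mouse Paneth cells. Its normalised counts were 573, 212 and 161 in labelled KO1 to KO3, against 136, 130 and 535 in WT1 to WT3. Labelled KO1 and WT3 were high and the other 4 libraries low, in both genotypes. The log2 fold change was 0.35 ± 0.67 (limma adjusted p = 0.752), 1.01 without WT3 and -0.20 without labelled KO1. Of 6 related angiogenin and ribonuclease genes, Ang2, Ang5 and Ang6 were at 0 in all libraries. Ang had 307, 100 and 82 in the labelled KO libraries, against 164, 210 and 491 in the WT libraries, and Rnase4 had 2092, 984 and 888 against 1170, 1323 and 2589. None of the 3 tested (Ang, Rnase1 and Rnase4) was called by limma, nor was any at an unadjusted p under 0.05 (0 genes).

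Defa17, an alpha-defensin gene, had 754, 351 and 345 in labelled KO1 to KO3, against 182, 171 and 428 in WT1 to WT3. WT3 was above labelled KO2 and KO3, and the log2 fold change of 0.92 ± 0.44 did not pass (limma adjusted p = 0.210). Defa24 had 2, 0 and 0 in labelled KO1 to KO3, against 2, 0 and 0 in WT1 to WT3, and it failed the filter on low values. The other 7 members passed that filter of at least 10 in at least 3 libraries, each on its WT libraries alone. The annotated Defa17 transcript shared 92.0% of its 50-base windows with at least 1 of 15 other genes, and that of Defa24 28.1% with at least 1 of 9. The sources do not state how reads with several matches were treated, so the level of each defensin alone is uncertain.

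**Figure D2:**
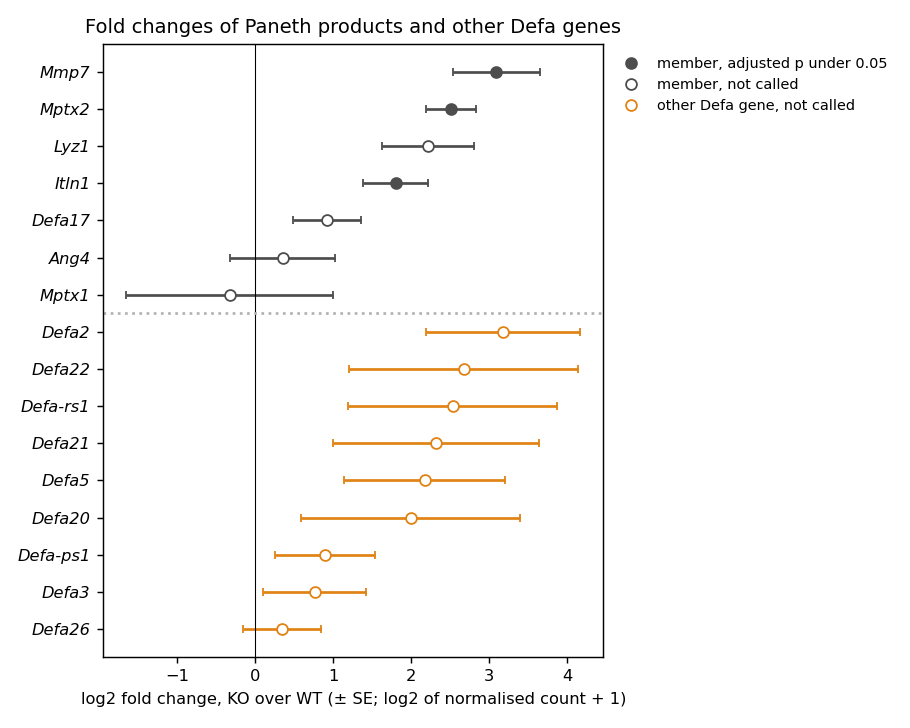
Log2 fold change of labelled KO over WT with its SE for the 7 members tested (grey, above the dotted line) and the 9 other tested genes whose symbol starts with Defa (orange, below it). Filled points are called at a limma adjusted p under 0.05: Mmp7, Mptx2 and Itln1.

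In all, 3 of the 7 members tested rose and none fell, where 4.85% of all genes tested were called higher. A further member, Lyz1, did not overlap between the genotypes, which made 4 of 7, against 19.8% of all genes tested with the labelled KO libraries above the WT libraries. The median log2 fold change of the 7 was 1.80, beside -0.01 over all genes. The members were chosen with these results known. Summed over the 8 genes, normalised counts were 22862, 16680 and 14196 in labelled KO1 to KO3, against 3600, 2499 and 10053 in WT1 to WT3. These sums were 0.133%, 0.112% and 0.0958% of all normalised counts in labelled KO1 to KO3, against 0.0262%, 0.0183% and 0.0713% in WT1 to WT3. In bulk tissue, more Paneth cells and more RNA per Paneth cell cannot be told apart.

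Several of the remaining alpha-defensin genes had WT3 further above the other WT libraries than any member did. Of 16 further symbols that start with Defa, 6 were at 0 in all libraries and 9 were tested. None was called by limma (0 of 9, with 1 at an unadjusted p under 0.05). All 9 log2 fold changes were positive, from 0.34 to 3.18. Over all 14686 genes tested, 4455 had an unadjusted limma p under 0.05 and 7207 had a positive log2 fold change. Of the 50-base windows, 100% in Defa2 and Defa20 and 99.7% in Defa5 also occurred in another gene. The 9 rows may therefore not be separate measurements. Defa22, the highest of them by mean, had 2090, 605 and 725 in labelled KO1 to KO3, against 34, 50 and 1986 in WT1 to WT3. Its WT3 value was 47.3 times the mean of WT1 and WT2, and labelled KO1 was 1.05 times WT3. Defa21 had 1648, 579 and 597 in the labelled KO libraries, against 37, 73 and 1621 in the WT libraries. Defa5 had 1573, 701 and 725, against 82, 84 and 1243. In all 9 genes WT3 was above both other WT libraries, and labelled KO2 and KO3 were above WT1 and WT2.

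Without WT3, 5 of these 9 were called higher: Defa5 (3.47 ± 0.38), Defa22 (4.52 ± 0.55), Defa2 (4.33 ± 0.58), Defa21 (3.97 ± 0.54) and the pseudogene Defa-ps1 (1.69 ± 0.25), with limma adjusted p-values from 0.0212 to 0.0381. In that fit 2.67% of the 14489 genes tested were called and 1.86% were called higher. WT3 was above both other WT libraries in all 9, so leaving it out raises their differences by construction. Defa2 had 2 and 1 in WT1 and WT2, so in that fit it passed the filter on its labelled KO libraries alone. These calls are thus no separate support. The transcripts of Defa21 and Defa22 were 99.5% identical, so these rows are not independent measurements. A further 14 alpha-defensins were listed under older Gm symbols that RefSeq pairs with Defa names, found after the values had been seen. Of these, 4 were tested and none called by limma (1 at an unadjusted p under 0.05). Gm15284, now Defa30, was the highest, with 3508, 2334 and 2013 in the labelled KO libraries, against 689, 552 and 3066 in the WT libraries. The Lyz1 to Defa22 ratio was 5.91, 14.4 and 12 in labelled KO1 to KO3, against 49.0, 19.9 and 2.88 in WT1 to WT3.

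**Figure D3:**
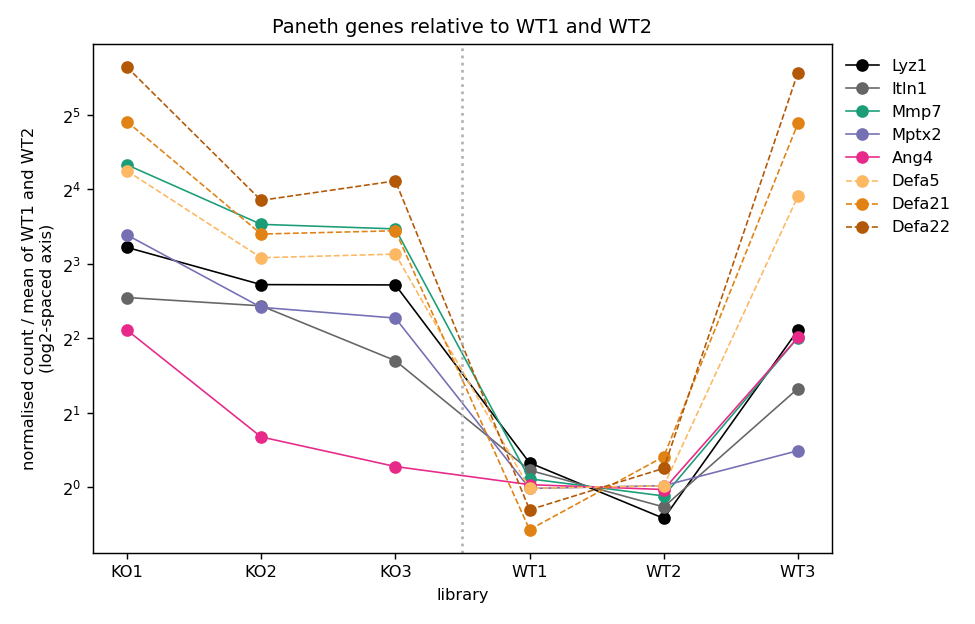
Normalised count of 5 members (solid) and 3 alpha-defensins (dashed) in each library, divided by the gene's mean in WT1 and WT2, on a log2-spaced axis; lines only join the points of a gene. Labelled KO1 is 1.07, 1.02 and 1.05 times WT3 for Ang4, Defa21 and Defa22, whereas for Mptx2 WT3 stays near WT1 and WT2, at 1.4 times their mean.

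The 6 libraries also differed in markers of intestinal region and of neighbouring organs. Among ileal bile acid and distal genes, Fgf15, the ileal hormone that restrains bile acid synthesis, had 390, 0 and 0 in labelled KO1 to KO3, against 5, 13 and 1975 in WT1 to WT3. Osr2 had 913, 78 and 36 in the labelled KO libraries, against 62, 91 and 750 in the WT libraries. Labelled KO1 and WT3, the libraries highest in alpha-defensins within their genotypes, were thus also the highest in these distal markers. Fabp6, an ileal bile acid binding protein, was at 1947 in labelled KO1 and at 4 or less in the other 5 libraries. The sum over the 8 ileal genes was 13666, 3894 and 3268 in labelled KO1 to KO3, against 3995, 4205 and 10325 in WT1 to WT3, and none of the 6 tested was called (limma; 0 at an unadjusted p under 0.05).

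Gastric and duodenal gland genes followed another pattern over the libraries. Muc6, a gel mucin of the stomach and of Brunner's glands, had 256, 7910 and 204 in labelled KO1 to KO3, against 14423, 10673 and 124 in WT1 to WT3. The sum of 11 stomach genes was 383, 14116 and 376 in the labelled KO libraries, against 30107, 24641 and 189 in the WT libraries. That of 11 exocrine pancreas genes was 8878, 6807 and 765, against 53449, 3318 and 2863. Ctrb1 and Clps held most of the pancreas sum in labelled KO1 (7600 and 1043) and in WT3 (2309 and 382). Cela2a and Cel were at 0 in labelled KO1 and WT3, against 766 and 582 in labelled KO2. None of the 7 stomach and 9 pancreas genes tested was called by limma (0 and 0 at an unadjusted p under 0.05). The part of these differences in the Paneth results was not tested. Of 10 genes of the proximal small intestine none rose, and Lct, the lactase of suckling, fell (-1.22 ± 0.28; limma adjusted p = 0.0446). Of all genes tested, 4.85% were called higher and 3.94% lower, so 1 call among 10 is no result about the list. Cybrd1 had 224, 9894 and 7285 in labelled KO1 to KO3, against 6634, 3087 and 402 in WT1 to WT3. Onecut2 had 75, 2560 and 2216, against 1835, 1960 and 200. Both were thus lowest in labelled KO1 and WT3 within their genotypes. By contrast, Lct, Fabp1, Apoa4 and Rbp2 were highest in labelled KO1 among the labelled KO libraries.

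**Figure D4:**
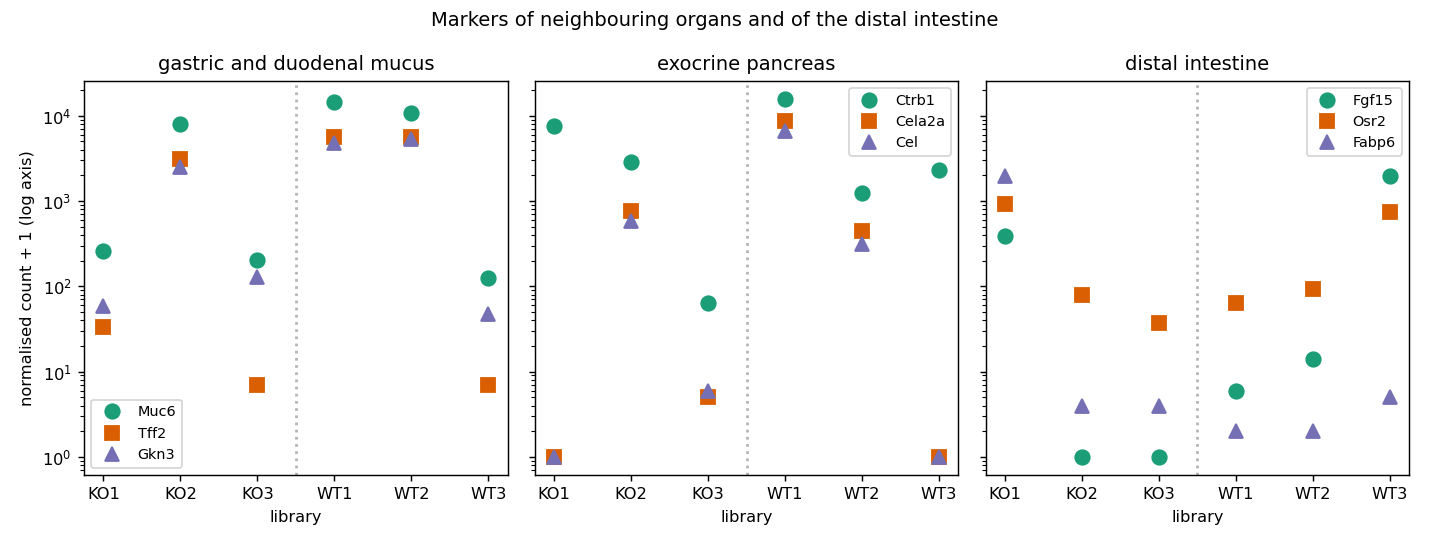
Normalised count + 1 on a log axis, in each library, for 3 genes each of gastric and duodenal mucus, exocrine pancreas and distal intestine. Muc6, Tff2 and Gkn3 are high in labelled KO2, WT1 and WT2, and Fgf15 and Osr2 are high in labelled KO1 and WT3.

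With WT3 and labelled KO1 both left out, the log2 fold changes were 3.48 ± 0.15 for Mmp7, 2.76 ± 0.23 for Lyz1, 2.33 ± 0.15 for Mptx2, 2.08 ± 0.26 for Itln1 and 0.98 ± 0.13 for Defa17. These 5 of 7 members were called at limma adjusted p-values from 0.000222 to 0.00455, where 26.4% of the 14232 genes tested in that fit were called and 14.3% were called higher. Ang4 (0.47, limma adjusted p = 0.101) and Mptx1 (-1.47, limma adjusted p = 0.415) were not. Each group kept only 2 libraries in that fit. WT3 was the highest WT library for 6 of the 7 members, so leaving it out raises their differences by construction. Labelled KO1 was the highest labelled KO library for all 7, so leaving it out lowers them. The calls in that fit are thus no separate support. Between these 2 libraries alone, labelled KO1 had 7.44 times the Mptx2, 4.99 times the Mmp7, 2.33 times the Itln1 and 2.16 times the Lyz1 of WT3. The same ratio was 1.07 for Ang4, 1.76 for Defa17 and 3.84 for Mptx1, and it has no replicate.

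**Figure D5:**
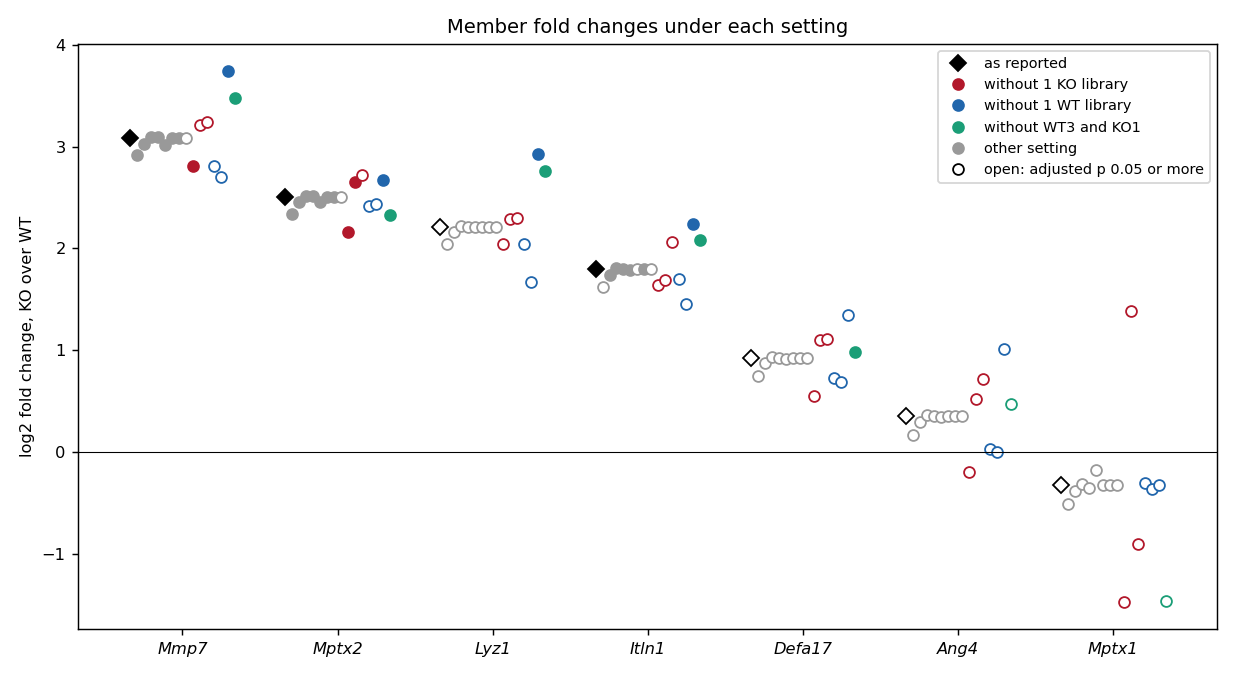
Log2 fold change of labelled KO over WT for each tested member as reported (diamond) and under every alternative, with filled points at a limma adjusted p under 0.05. Mmp7, Mptx2, Lyz1 and Itln1 stay at 1.45 or more under every setting shown, and Ang4 and Mptx1 cross 0 when certain libraries are left out.

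Of 20 genes that guide Paneth cell formation and the crypt niche, all tested, 1 rose and none fell, with a median log2 fold change of 0.19. That is near the 4.85% of all genes called higher, so it is no result about the list. Xbp1, the transcription factor that expands the secretory machinery, had 2489, 2699 and 2447 in labelled KO1 to KO3, against 1710, 1616 and 1812 in WT1 to WT3. It rose, at 0.57 ± 0.13 in log2 units and an adjusted p of 0.0408 by limma. The call was lost without any library other than labelled KO1, at limma adjusted p-values of 0.0767 to 0.202, and when values were rescaled by library totals (0.40; limma adjusted p = 0.104). Atoh1 had 213, 248 and 194 in the labelled KO libraries, against 96, 101 and 248 in the WT libraries, and did not pass (0.69 ± 0.37; limma adjusted p = 0.248). WT3 again stood with the labelled KO libraries. Sox9, which Paneth cells require, had 296, 653 and 568 against 529, 442 and 374 (0.11 ± 0.31; limma adjusted p = 0.833). Ephb3, the receptor that holds Paneth cells at the crypt base, had 794, 606 and 683 against 513, 465 and 437 (0.55 ± 0.15; limma adjusted p = 0.0674). Tcf7l2, a Wnt pathway factor, had 326, 596 and 768 against 352, 293 and 294 (0.76 ± 0.31; limma adjusted p = 0.150). Wnt3, the Wnt ligand that Paneth cells make, had 95, 63 and 55 against 87, 99 and 74 (-0.31 ± 0.25; limma adjusted p = 0.435). Nod2, a bacterial sensor of Paneth cells, had 15, 35 and 21 against 38, 58 and 46 (-1.03 ± 0.35; limma adjusted p = 0.107).

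Markers of other cell types that the tissue holds were read alongside. Goblet cells, which also make Itln1, had 5 of 14 listed genes higher and none lower, with a median log2 fold change of 0.87. Of all genes tested, 4.85% were called higher and 3.94% lower. Among the 5, Retnlb was at 0 in every WT library and had 90, 199 and 96 in labelled KO1 to KO3. It thus passed the filter on its labelled KO libraries alone. Zg16, a lectin of the mucus layer, had 13880, 15647 and 11552 in labelled KO1 to KO3, against 4986, 3252 and 7775 in WT1 to WT3, and rose (1.44 ± 0.32; limma adjusted p = 0.0419). Tff3, the goblet trefoil peptide, had 24337, 14475 and 11044 in the labelled KO libraries, against 6236, 5318 and 10971 in the WT libraries, and did not pass (1.14 ± 0.37; limma adjusted p = 0.0973). The goblet list summed to 96589 to 137261 in the labelled KO libraries, against 47576 to 74682 in the WT libraries. Of 10 general epithelial genes 3 rose, Krt8, Krt20 and Cldn3. The sum over all 10 was 157941 to 169077 in the labelled KO libraries, against 85673 to 107189 in the WT libraries. Of 10 macrophage genes, Lyz2 included, none rose and Adgre1 fell (-0.96 ± 0.22; limma adjusted p = 0.0462). Of 10 neutrophil genes only 5 were tested, and the rest failed the filter on low values, such as Elane (0 to 1) and Mpo (1 to 5). Of the 5 tested, S100a8, S100a9 and Ltf rose and Retnlg fell. S100a8 had 3, 2 and 4 in WT1 to WT3, and S100a9 had 5, 6 and 17. Neither would have passed the filter without its labelled KO libraries, where both were high, so their calls are no separate support. Of 8 colon genes, Car1 and Hoxb13 were at 0 in every library and none of the 6 tested was called by limma. Of those 6, 3 had an unadjusted limma p under 0.05, as had 4455 of all 14686 genes tested. The part of these populations in the Paneth results was not tested.

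Across the 6 libraries, the genes outside the members whose log2 values ran most like the mean of the 7 tested members were Lrrc41, Vps53 and Cystm1 (Pearson r of 0.998, 0.997 and 0.996 over 6 libraries). They were followed by Tmed10, Tax1bp3, Gchfr, Ms4a8a and Capzb, at 0.993 to 0.995. None of the 8 was called, with log2 fold changes from 0.22 for Tmed10 to 1.56 for Gchfr. Gchfr had 763, 314 and 345 in labelled KO1 to KO3, against 116, 105 and 261 in WT1 to WT3. Among the members themselves, Defa17 ran closest to their mean, at r = 0.97, and Mptx1 least, at 0.32. These are descriptions over 6 libraries that share their genotypes and regional differences, and with 14686 genes high values are common.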

How the data were processed

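RNA-seq libraries of mouse small intestine, 3 labelled Erk1/2 -/- and 3 labelled wild type, were assigned to groups by their titles. Per the labels' protocols, RNA was extracted with Trizol and libraries were made with a TruSeq kit. Per the submitters' processing notes, TopHat2 2.1.0, HTSeq 0.6.0, DESeq2 and mm10 were used, in no stated order. Annotation, strand and multi-mapping settings were not stated in the sources used here. The values deposited by the authors are a score per symbol: whole numbers that behave as read counts scaled by library and then rounded, not raw counts. Factors of 0.8412 to 1.1774 were estimated from whole numbers that were missing or over-represented. Counting intervals were not computed.

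limma 3.58.1 (R 4.3.3) was fitted to log2(normalised count + 1), with an intensity trend, keeping genes that reached 10 in 3 or more libraries. P-values were two-sided and adjusted by Benjamini-Hochberg over 14686 genes, with a threshold of 0.05. There were 4 residual and 2.99 prior degrees of freedom. Fold changes are on this scale and understate those of low genes. The script was tested on simulated data. Members and gene lists were chosen with earlier results of these data known. Named genes were all 8 members, called and high Defa genes, called and known regulators, up to 3 abundant genes of other lists, the 8 most similar patterns and Mapk3. S100a8, S100a9, Retnlg, Retnlb, Elane, Mpo, Adgre1, Krt20, Cldn3, Osr2, Fabp6, Cybrd1, Onecut2, Clps, Cel, Defa2, Defa-ps1 and the Gm symbol were named after their values were seen. Transcript windows came from GENCODE vM21. Alternatives changed scaling, pseudocount, filter, block and libraries.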

Additional observations from a re-analysis of the deposited data

How the results depend on the processing

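Under other scalings, pseudocounts and filters, 3 of the 7 members tested were called, or 2 with library totals and with no filter, where Itln1 was lost. The count over all genes stayed between 935 and 1397. Its higher share was 55.2% as reported, 44.5% after upper-quartile scaling and 29.6% after scaling by library totals. The last moved the median of all genes to -0.19. Leaving out each library in turn gave 28 to 2998 genes called, 0 to 4 members, 0 to 5 of the other Defa genes and 0 to 4 regulators. No member was called without labelled KO3, WT1 or WT2, and 1 (Mptx2) without labelled KO2. Without both WT3 and labelled KO1 the counts were 3762, 5, 4 and 5. Rescaling by library totals left 0 regulators. Ang4 changed sign without labelled KO1 (-0.20) and without WT2 (-0.00224), and Mptx1 without labelled KO2 (1.39), none called. Over all left-out libraries, Ang4 ranged from -0.20 to 1.01 and Mptx1 from -1.48 to 1.39. The causes were not tested. Same-numbered libraries did not deviate together (correlations of -0.373, 0.302 and -0.161 for numbers 1, 2 and 3), and not every library correlated best with its own number. With the replicate number as a block, 64 genes, 0 members, 0 other Defa genes and 0 regulators were called. The rounding of the values limits what low genes such as Defa24 can show.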
